A study of Mus musculus with 11 samples.

Results

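The genes described here are the matrix metalloproteinases (MMPs), the ADAM and ADAMTS metalloproteinases, the ADAMTS-like proteins, the tolloid-like proteases and the tissue inhibitors of metalloproteinases (TIMPs). They were taken by gene symbol alone, and 86 of the 24421 symbols in both deposited count tables matched. They comprised 23 MMPs, 33 ADAMs, 19 ADAMTS proteases, 5 ADAMTS-like genes, 2 tolloid-like genes and 4 TIMPs.

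Hindlimb muscle RNA was sequenced from mice carrying the Hic1CREERT2 allele, in which the Hic1 locus drives a Cre that tamoxifen activates, with a tdTomato reporter. WT/flox mice (labelled WTlFlox) had 1 Ctnnb1 allele with exon 3 flanked by loxP sites, and WT mice had none. Cre removes exon 3, which encodes the part of beta-catenin that marks it for degradation, so the protein becomes stable in cells that had active Cre. Sorted progenitors (CD45-, CD31-, Sca1+, tdTomato+, alpha7 integrin-) came from resting muscle as 3 WT/flox samples (74A1, 72B7 and 74A3) and 3 WT samples (72B8, 74A2 and 73C3), 14 days after tamoxifen, except 74A3, which was labelled day 56. Whole lysates of tibialis anterior muscle, all at day 56, gave 3 WT/flox samples (71B3, 71B4 and 71B5) and 2 WT samples (73A5 and 73A7). All groups therefore had tamoxifen, and ages were not given in the sources used here. Per-library values below follow these orders. Progenitor libraries 74A1 and 74A2 were labelled female, and all other libraries in both materials male.

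Secreted and membrane-bound zinc proteases cut collagens, proteoglycans and cell-surface proteins, and TIMPs block many of them by binding the active site. Most ADAMs act on membrane proteins: ADAM10 and ADAM17 shed Notch receptors, cytokines and growth factor precursors. ADAMTS proteases are secreted and cut procollagens or the aggregating proteoglycans (hyalectans) such as versican and aggrecan, whereas ADAMTS-like proteins have no protease domain and bind fibrillin-rich matrix. Fibro-adipogenic progenitors are the main matrix-producing cells of skeletal muscle.

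Total counts per library were 13119843 to 16805238 in progenitors and 16892158 to 19449227 in muscle. Every pair of libraries within a group differed by more than counting noise, with chi-square over degrees of freedom between 9.65 and 84.4, and the WT progenitor library 73C3 stood farthest from its group, at 68.6 and 84.4 against 30.9 between the other WT progenitor libraries. Summed progenitor markers (Pdgfra, Ly6a, Dcn, Col1a1, Hic1, Pi16 and Dpp4) were 39565 to 42945 CPM (counts divided by the library total in 1000000s, scaled by the trimmed mean of M-values) in WT/flox progenitors and 23964 to 30568 CPM in WT progenitors. Most of that sum was Col1a1, the only one of the 7 called (higher in WT/flox), and Dcn; the other 5 summed to 4184 to 4403 CPM in WT/flox and 4077 to 5589 CPM in WT progenitors, with overlap. Summed endothelial markers were 147 to 184 CPM in WT/flox and 335 to 454 CPM in WT progenitors, and mural markers 94.5 to 147 CPM in WT/flox and 168 to 258 CPM in WT; in these lists only Tek and Cspg4 were called, both lower. Tek made up most of the endothelial sum, at 152 ± 19.0 CPM in WT/flox and 377 ± 49.9 CPM in WT (SD, n = 3 each). The other endothelial markers were low. Pecam1 had means of 5.82 CPM in WT/flox and 6.83 CPM in WT, and Cdh5 5.51 and 7.36 CPM. Emcn and Cldn5 also had lower means in WT/flox, and Egfl7 a higher one. Cspg4 made up most of the WT mural sum, with means of 31.1 CPM in WT/flox and 147 CPM in WT. Of the other mural markers, Kcnj8, Abcc9, Acta2 and Rgs5 had higher means in WT/flox, and Myh11 a lower one. Tenocyte markers were 68.4 to 144 CPM in WT/flox and 165 to 430 CPM in WT progenitors, although Mkx, the only tenocyte marker called, was higher in WT/flox (log2 fold change 1.28, SE 0.27, adjusted p = 0.0323). Fmod made up most of the tenocyte sum, with means of 92.2 CPM in WT/flox and 274 CPM in WT. Muscle stem cell markers were 30.9 to 37.4 CPM in WT/flox and 48.3 to 56.0 CPM in WT progenitors, with none called. Vcam1 made up most of that sum, with means of 25.9 CPM in WT/flox and 38.7 CPM in WT. Pax7 had means of 0.0497 CPM in WT/flox and 0.0196 CPM in WT, and Myf5 had 0 counts. Immune markers were 5.38 to 15.5 CPM in WT/flox, where Cd3e was at 0, and 7.0 to 7.94 CPM in WT. Myofibre markers summed to 96746 to 142080 CPM in WT/flox muscle and 142519 to 162566 CPM in WT muscle, which matches the label of whole muscle, although the deposited sample table lists these libraries as progenitors. Counts per gene cannot show the removal of 1 exon, so recombination was not checked. The labels do not say whether the samples came from separate animals, litters or days, and in muscle all WT/flox samples had IDs starting 71B and all WT samples 73A, so genotype cannot be told apart from anything those IDs share.

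The zinc-binding site of these proteases is shown for the 5 proteases whose expression differed in progenitors, with Mmp2, the most abundant protease per length in WT progenitors, for comparison. Each line gives the 33 coding bases of the site read 5′ to 3′ on the gene's strand from GENCODE M21 coding sequence (GRCm38). Capitals mark the codons of the zinc-binding histidines (residues 1, 5 and 11), the catalytic glutamate (residue 2) and residue 8, counted from the first histidine.
Adamts8, chr9:30952721-30953378, plus strand, across an exon junction: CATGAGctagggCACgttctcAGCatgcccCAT
Adamts15, chr9:30911255-30911690, minus strand, across an exon junction: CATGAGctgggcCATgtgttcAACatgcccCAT
Adamts9, chr6:92905285-92908493, minus strand, across an exon junction: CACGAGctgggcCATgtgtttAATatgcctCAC
Adam17, chr12:21336732-21336764, minus strand, exon 12: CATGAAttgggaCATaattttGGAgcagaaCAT
Tll2, chr19:41130541-41130573, minus strand, exon 6: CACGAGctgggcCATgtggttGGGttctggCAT
Mmp2, chr8:92839279-92839311, plus strand, exon 8: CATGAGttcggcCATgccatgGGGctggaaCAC

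A site of this form was found in 64 of the 86 longest coding sequences: all 23 MMPs, all 19 ADAMTS proteases, both tolloid-like genes and 20 of 33 ADAMs. It was in none of the 5 ADAMTS-like genes or the 4 TIMPs. Residue 8 was glycine in every MMP, ADAM and tolloid-like gene with the site and in 13 ADAMTS genes, including Adamts5. The other 6 ADAMTS genes were Adamts1, Adamts4, Adamts9, Adamts15 and Adamts20, with asparagine, and Adamts8, with serine. These 6 belong to the group that cleaves hyalectans, and the 3 ADAMTS proteases that differed in progenitors (Adamts8, Adamts9 and Adamts15) were among them. The site of Adamts15 shared 27 of 33 bases with that of Adamts8 and 28 of 33 with that of Adamts9, and Adamts8 and Adamts9 shared 22 of 33.

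Of the 86 genes, 22 had 0 counts in all 11 libraries, among them 15 of the 21 ADAMs known from the reproductive tract. In progenitors 51 passed the count filter, 24 had no count and 11 had too few counts to test, the highest count in any library being 28 (Mmp9). In muscle 45 passed, 22 had no count and 19 had too few, up to 12 in a library (Adam8). Among the 43 tested in both materials, WT CPM was higher in progenitors than in muscle for 39. The 86 genes held 1.19% to 1.22% of all counts in WT/flox progenitors and 1.25% to 1.42% in WT progenitors. In muscle they held 0.0928% to 0.110% of counts in WT/flox and 0.0880% to 0.0890% in WT. On the scaled CPM used elsewhere, the sums in muscle overlapped, at 933 to 970 CPM in WT/flox and 910 and 952 CPM in WT. In progenitors the scaled sums nearly touched, at 12209 to 12379.5 CPM in WT/flox and 12385.5 to 14010.8 CPM in WT.

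Per kilobase of exon, the inhibitor Timp2 was the most abundant gene in WT progenitors (969 CPM per kb), followed by the gelatinase Mmp2 (757 CPM per kb) and Timp3 (165 CPM per kb). The membrane-type protease Mmp14, which activates pro-MMP2 together with TIMP2, stood at 99.7 CPM per kb. The hyalectan-cleaving Adamts5, the procollagen N-proteinase Adamts2 and Adamts1 followed at 93.1, 78.9 and 73.9 CPM per kb, and the most abundant ADAM was Adam9 at 54.0 CPM per kb. In WT muscle the highest of these were Timp2 (30.6 CPM per kb), Timp3 (23.3 CPM per kb) and Adam9 (22.2 CPM per kb). Timp4 ran the other way, at 0.329 CPM per kb in WT progenitors and 9.77 CPM per kb in WT muscle. So did Adamts8, at 0.350 CPM per kb in WT progenitors and 2.05 CPM per kb in WT muscle.

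**Figure D1:**
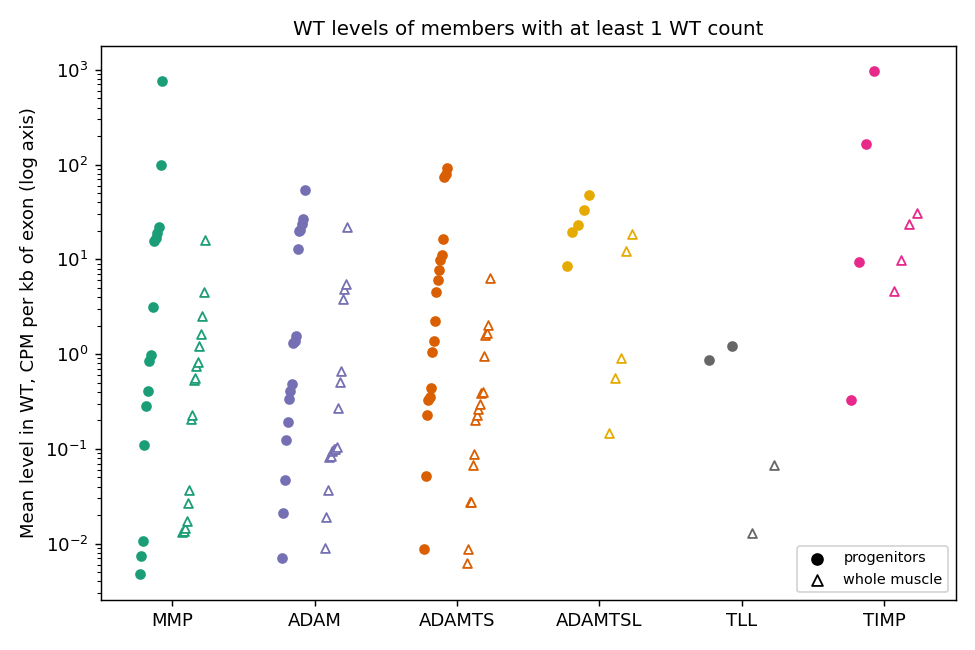
Mean level in WT samples of each gene with at least 1 WT count, in CPM per kilobase of exon on a log axis, by family. Filled circles are sorted progenitors (3 libraries) and open triangles whole muscle (2 libraries); Timp2 is the highest point in progenitors at 969 CPM per kb.

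In WT/flox progenitors 2 proteases rose (Adamts8 and Adamts9) and 4 genes fell (Tll2, Adamtsl3, Adamts15 and Adam17), against WT. They were called at a Benjamini-Hochberg adjusted p under 0.05 in edgeR's quasi-likelihood test. That is 6 of 51 tested genes, or 11.8%, where 3.66% of all 12392 tested genes were called (2.34% higher and 1.32% lower). The libraries of the 2 genotypes did not overlap for 18 of the 51 genes, 9 higher and 9 lower (35.3%), against 16.9% of all tested genes (8.73% higher and 8.17% lower). The median log2 fold change was -0.02 over the 51 genes and 0.00 over all tested genes. Leaving out the day 56 library 74A3 left 1 higher (Adamts8) and 3 lower (Tll2, Adamtsl3 and Adamts15), and leaving out the WT library 73C3 gave 2 higher and 8 lower, the added ones being Adam19, Adamts12, Adamts14 and Adamtsl2. The endothelial, mural, tenocyte and muscle stem cell marker sums given above were lower in every WT/flox library than in any WT progenitor library. On average, most of each WT sum came from Tek, Cspg4, Fmod and Vcam1, in that order. The progenitor marker sum was higher with Col1a1 and Dcn and overlapped without them, and the part of these markers in the differences was not tested. In bulk RNA, fewer cells of a type and less RNA per cell cannot be told apart.

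**Figure D2:**
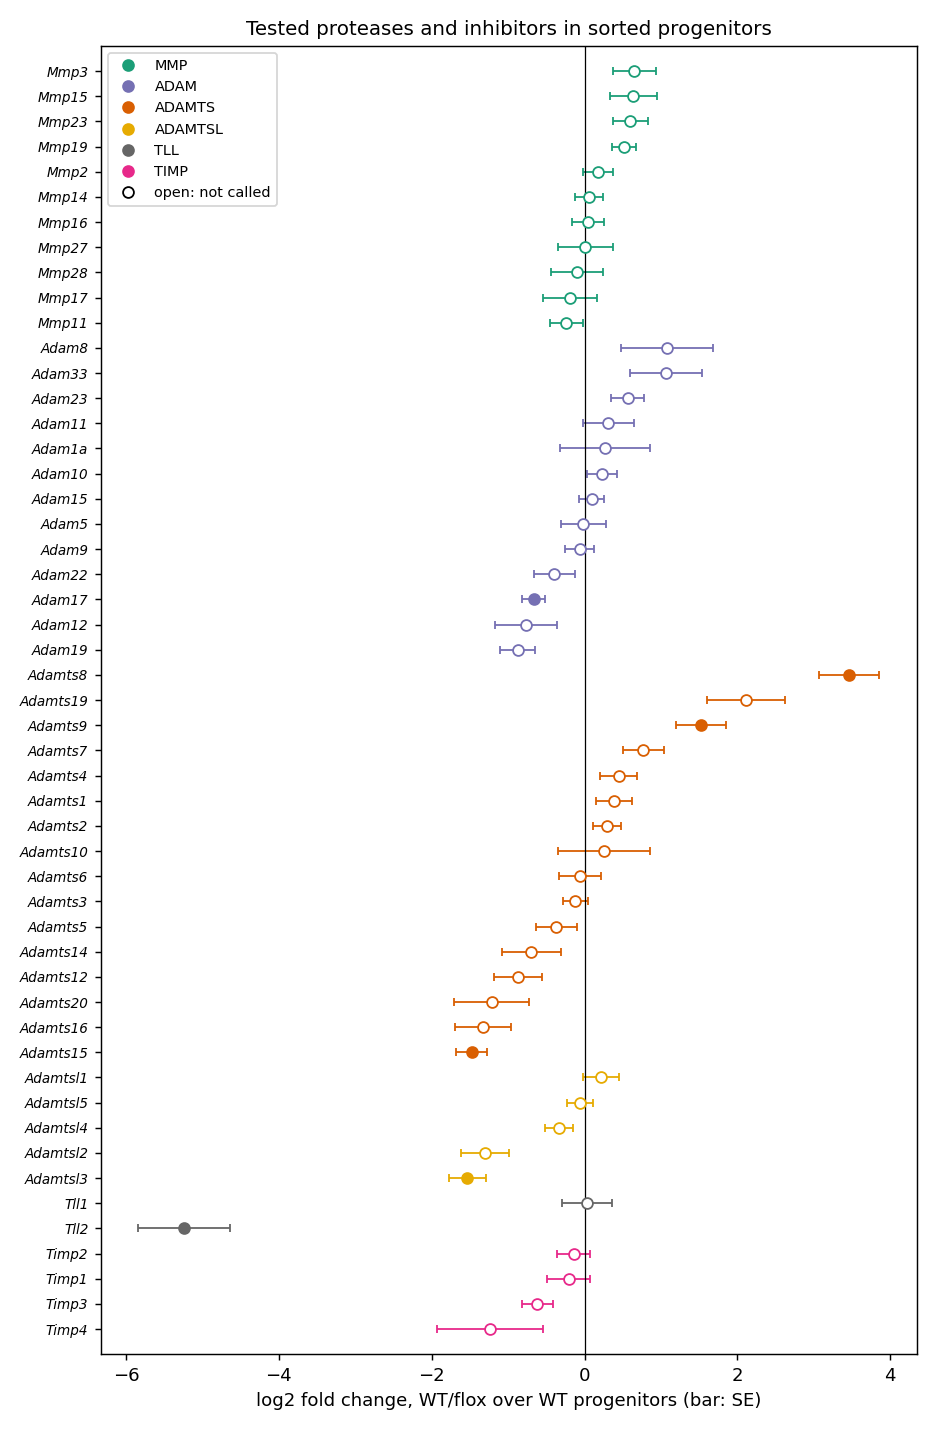
Log2 fold change of WT/flox over WT progenitors for the 51 tested genes, grouped by family, with the standard error as bars. Filled points are the 6 called genes, with Adamts8 at 3.47 and Tll2 at -5.24 at the ends of the range, and open points are the 45 genes not called.

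Adamts8, a secreted protease that cleaves hyalectans (ENSMUSG00000031994, GRCm38 chr9:30942562-30963838, plus strand), had 27.4, 11.1 and 15.8 CPM in WT/flox progenitors, against 1.43, 1.13 and 2.29 CPM in WT progenitors. Every WT/flox library lay above every WT library. The means were 18.1 ± 8.4 CPM and 1.62 ± 0.606 CPM (SD, n = 3 each), an 11.1-fold rise (log2 fold change 3.47, SE 0.39, adjusted p = 0.00109). The call held in all 12 alternative analyses, with log2 fold changes of 3.04 to 3.83. A listed antisense gene, Gm29724, overlaps 489 exonic bases, and whether the counting used strand was not given in the sources used here.

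Adamts9, a secreted hyalectan-cleaving protease (ENSMUSG00000030022, chr6:92772699-92943492, minus strand), had 23.8, 16.1 and 16.6 CPM in WT/flox progenitors, against 8.28, 8.14 and 3.35 CPM in WT progenitors. The lowest WT/flox library was above the highest WT library. It averaged 18.8 ± 4.3 CPM in WT/flox and 6.59 ± 2.81 CPM in WT progenitors (SD, n = 3 each), which is 1.52 on the log2 scale (SE 0.33, adjusted p = 0.0324). Without 74A1, 72B7, 74A3 or 72B8 the call was lost, with adjusted p up to 0.114 over all 12 alternatives and log2 fold changes of 1.2 to 1.71. A pair of listed opposite-strand genes share exonic bases with it.

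Adamts15, a hyalectan-cleaving protease (ENSMUSG00000033453, chr9:30899155-30922452, minus strand), had 32.6, 34.0 and 41.9 CPM in WT/flox progenitors, against 119, 109.8 and 73.8 CPM in WT progenitors. All 3 WT/flox libraries were below the lowest WT library. The mean fell to 36.2 ± 5.03 CPM in WT/flox, against 101 ± 23.9 CPM in WT (SD, n = 3 each), or -1.48 on the log2 scale (SE 0.21, adjusted p = 0.00338), and the call held in all 12 alternatives. Adamts15 and Adamts8 are neighbours on chromosome 9, 20109 bases apart and transcribed away from each other, and they moved in opposite directions.

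Among the hyalectan-cleaving ADAMTS genes (Adamts1, Adamts4, Adamts5, Adamts8, Adamts9, Adamts15 and Adamts20), all 7 were tested in progenitors, with 2 higher and 1 lower, where 3.66% of all tested genes were called, and a median log2 fold change of 0.39. Adamts1 and Adamts5, neighbours on chromosome 16 with 53059 bases between them, did not pass. Adamts1 had 586, 462 and 489 CPM in WT/flox progenitors, against 317, 536 and 323 CPM in WT progenitors (log2 fold change 0.39, SE 0.24, adjusted p = 0.651). Adamts5, the main aggrecan-cleaving enzyme of mouse cartilage, had 632, 730.2 and 969 CPM in WT/flox progenitors, against 1372, 729.7 and 912 CPM in WT progenitors (-0.37, SE 0.27, adjusted p = 0.754). The genotypes overlapped for both genes.

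Of all 16 tested ADAMTS genes 2 rose and 1 fell, beside 2.34% and 1.32% of all tested genes, and the median log2 fold change was 0.10. Adamts2, which removes the amino-terminal propeptide of fibrillar procollagens, had 922, 876 and 914 CPM in WT/flox progenitors, against 861, 737 and 613 CPM in WT progenitors. Its libraries did not overlap, but the difference did not pass (log2 fold change 0.30, SE 0.19, adjusted p = 0.677). Adamts19 and Adamts16, singled out after their values were seen, did not pass in edgeR. Adamts19 had 35.0, 11 and 13.2 CPM in WT/flox progenitors, against 4.37, 7.02 and 2.35 CPM in WT progenitors (2.11, SE 0.51, adjusted p = 0.0669). Adamts16 averaged 16.6 ± 2.18 CPM in WT/flox and 41.8 ± 25.4 CPM in WT progenitors (SD, n = 3 each; -1.33, SE 0.37, adjusted p = 0.105). DESeq2 called both.

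Adamtsl3, an ADAMTS-like matrix protein without a protease domain (ENSMUSG00000070469, chr7:82335694-82614450, plus strand), had 111, 71.5 and 81.8 CPM in WT/flox progenitors, against 304, 282 and 181 CPM in WT progenitors. The genotypes did not overlap. The mean fell to 88.2 ± 20.6 CPM in WT/flox, against 256 ± 65.4 CPM in WT (SD, n = 3 each), or -1.54 on the log2 scale (SE 0.24, adjusted p = 0.00672). Leaving out 72B7 raised the adjusted p to 0.0543, the highest of the 12 alternatives, and the lowest was 6.2e-08. It was the only gene edgeR called among the 5 ADAMTS-like genes, whose median log2 fold change was -0.33. Adamtsl4, which binds fibrillin, had 181, 145 and 157 CPM in WT/flox progenitors, against 249, 187 and 173 CPM in WT progenitors (-0.33, SE 0.19, adjusted p = 0.596). Adamtsl2, singled out after its values were seen, had 17.8, 38.5 and 27.0 CPM in WT/flox progenitors, against 67.3, 91.3 and 47.0 CPM in WT progenitors. Its libraries did not overlap, and it just missed the threshold in edgeR (-1.30, SE 0.31, adjusted p = 0.054), while DESeq2 called it lower.

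Tll2, a tolloid-like protease of the BMP1 family known to act on latent myostatin (ENSMUSG00000025013, chr19:41082753-41206835, minus strand), was nearly absent from WT/flox progenitors. It had 1, 1 and 2 counts there, against 41, 97 and 46 counts in WT progenitors. In CPM this was 0.0734, 0.0737 and 0.152 in WT/flox and 3.09, 6.42 and 2.71 in WT progenitors, so every WT library was far above every WT/flox library. The ratio of summed counts, WT over WT/flox and scaled to library totals, was 42.5 (95% exact interval 16.3 to 158, which covers counting error only). The fitted log2 fold change of WT/flox over WT, which depends on the prior count at so few counts, was -5.24 (SE 0.60, adjusted p = 0.00113), and the call held in all 12 alternatives. The related Tll1 had 15.3, 6.63 and 6.75 CPM in WT/flox progenitors, against 10.5, 10.1 and 7.59 CPM in WT progenitors, with overlapping genotypes (0.03, SE 0.33, adjusted p = 0.997).

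Adam17, the sheddase that releases tumour necrosis factor from membranes (ENSMUSG00000052593, chr12:21323509-21373632, minus strand), had 87.9, 86.5 and 98.0 CPM in WT/flox progenitors, against 157, 142 and 133 CPM in WT progenitors. The genotypes did not overlap. The means were 90.8 ± 6.29 CPM and 144 ± 12.5 CPM (SD, n = 3 each), a 1.59-fold fall (log2 fold change -0.67, SE 0.15, adjusted p = 0.0403). This was the least stable of the 6 calls: it held in 5 of 12 alternatives, was lost on leaving out any library other than 73C3, and its adjusted p ran up to 0.200. Adam17 shares 311 exonic bases with Iah1 on the opposite strand.

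The other 12 tested ADAMs did not pass in progenitors by edgeR, and the family's 13 log2 fold changes ran between -0.88 and 1.08 with a median of 0.10. Adam19, a sheddase of neuregulin, had 93.2, 91.8 and 123 CPM in WT/flox progenitors, against 217, 218 and 131 CPM in WT progenitors. The libraries did not overlap, but the adjusted p was 0.0762 (log2 fold change -0.88, SE 0.23). Adam19 passed in 3 of 12 alternatives, DESeq2 among them, with adjusted p of 0.00752 to 0.265. Adam9, the ADAM with the highest level per length, had 221, 167 and 249.7 CPM in WT/flox progenitors, against 244, 232 and 191 CPM in WT progenitors, with overlap (-0.06, SE 0.19, adjusted p = 0.992). Adam10, the other main sheddase and singled out for that role, had a log2 fold change of 0.23 (SE 0.19, adjusted p = 0.832).

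None of the 11 tested MMPs passed in progenitors by edgeR, DESeq2 or limma voom. In edgeR 3 had an unadjusted p under 0.05, all higher (27.3%, against 12.5% of all tested genes). Their log2 fold changes ran between -0.24 and 0.65, with a median of 0.06, and 8 were positive. Mmp2, which cuts denatured collagen and type IV collagen, had 2986, 3055 and 2586 CPM in WT/flox progenitors, against 2479.6, 2958 and 2214 CPM in WT progenitors (0.17, SE 0.20, adjusted p = 0.922). Mmp14 had 611, 659.9 and 589 CPM in WT/flox progenitors, against 667, 624 and 492 CPM in WT progenitors (0.06, SE 0.18, adjusted p = 0.992). The genotypes overlapped for both of these abundant proteases. Mmp3, Mmp15, Mmp19 and Mmp23 had the highest values in the family, at 0.52 to 0.65, with adjusted p of 0.122 to 0.474.

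A cluster of 10 MMP genes on chromosome 9 (chr9:7272514-7699585), from the collagenase Mmp13 to the matrilysin Mmp7, had few expressed members: only Mmp3 and Mmp27 passed the filter in progenitors, at 15.5 and 3.18 CPM per kb in WT, and only Mmp3 and Mmp13 in muscle. Mmp7 is known as a target of beta-catenin with TCF factors in intestinal tumours, and it had 0 counts in all 11 libraries, which at 3 counts per library allows up to 0.229 CPM. The 300 bases around its start (RefSeq, GRCm38.p6, chr9:7691840-7692139, plus strand, 250 before and 50 from the start on) hold a match to the TCF-type motif. It begins at base 255, just after that start. A second RefSeq window of Mmp7 (chr9:7692091-7692390) holds the same match from base 4, before its own later start. Whether this match takes part in the known role was not tested. The first window is shown because of that role, with the match in capitals on the opposite strand to the motif as written.
Mmp7: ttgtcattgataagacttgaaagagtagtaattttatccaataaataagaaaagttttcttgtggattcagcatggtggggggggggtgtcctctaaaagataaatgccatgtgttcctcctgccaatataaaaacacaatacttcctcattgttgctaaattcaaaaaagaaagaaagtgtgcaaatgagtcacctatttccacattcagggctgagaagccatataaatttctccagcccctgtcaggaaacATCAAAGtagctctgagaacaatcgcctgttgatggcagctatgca

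The motif was searched as CTTTGAA or CTTTGAT on both strands in windows of this length, and 4 of the 55 genes with a RefSeq window held it (7.27%; Adam20, Adam25, Mmp7 and Mmp21), against 9.88% of 27025 genes in the table. None of these 4 genes was tested in either material. Of the 6 genes called in progenitors, Adam17, Adamts9, Adamtsl3 and Tll2 had a window, and these letters were in none of the 4 windows.

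All 4 TIMPs had negative log2 fold changes in progenitors, with a median of -0.41. None passed in edgeR or limma voom, while DESeq2 called Timp3 lower. In edgeR 1 of the 4 had an unadjusted p under 0.05 (25%, against 12.5% of all tested genes). Timp3, the TIMP that binds the matrix and inhibits ADAM17 and several ADAMTS proteases, had 1063, 706 and 861 CPM in WT/flox progenitors, against 1258, 1268 and 1502 CPM in WT progenitors. The genotypes did not overlap (log2 fold change -0.62, SE 0.21, adjusted p = 0.195), and Timp3 shares 1733 exonic bases with Syn3 on the opposite strand. Timp2 had 3241, 3486 and 3555 CPM in WT/flox progenitors, against 4131, 2831 and 4361 CPM in WT progenitors (-0.14, SE 0.22, adjusted p = 0.957). Timp1, an inhibitor of most secreted MMPs, had 6.24, 6.19 and 9.10 CPM in WT/flox progenitors, against 6.48, 6.75 and 11.5 CPM in WT progenitors (-0.21, SE 0.28, adjusted p = 0.945). Both of these overlapped between genotypes. Timp4 was low, at 0.660, 1.03 and 0.758 CPM in WT/flox progenitors, against 2.56, 0.265 and 3.0 CPM in WT progenitors (-1.24, SE 0.69, adjusted p = 0.59). Summed TIMP expression was 4199 to 4426 CPM in WT/flox and 4107 to 5878 CPM in WT progenitors.

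**Figure D3:**
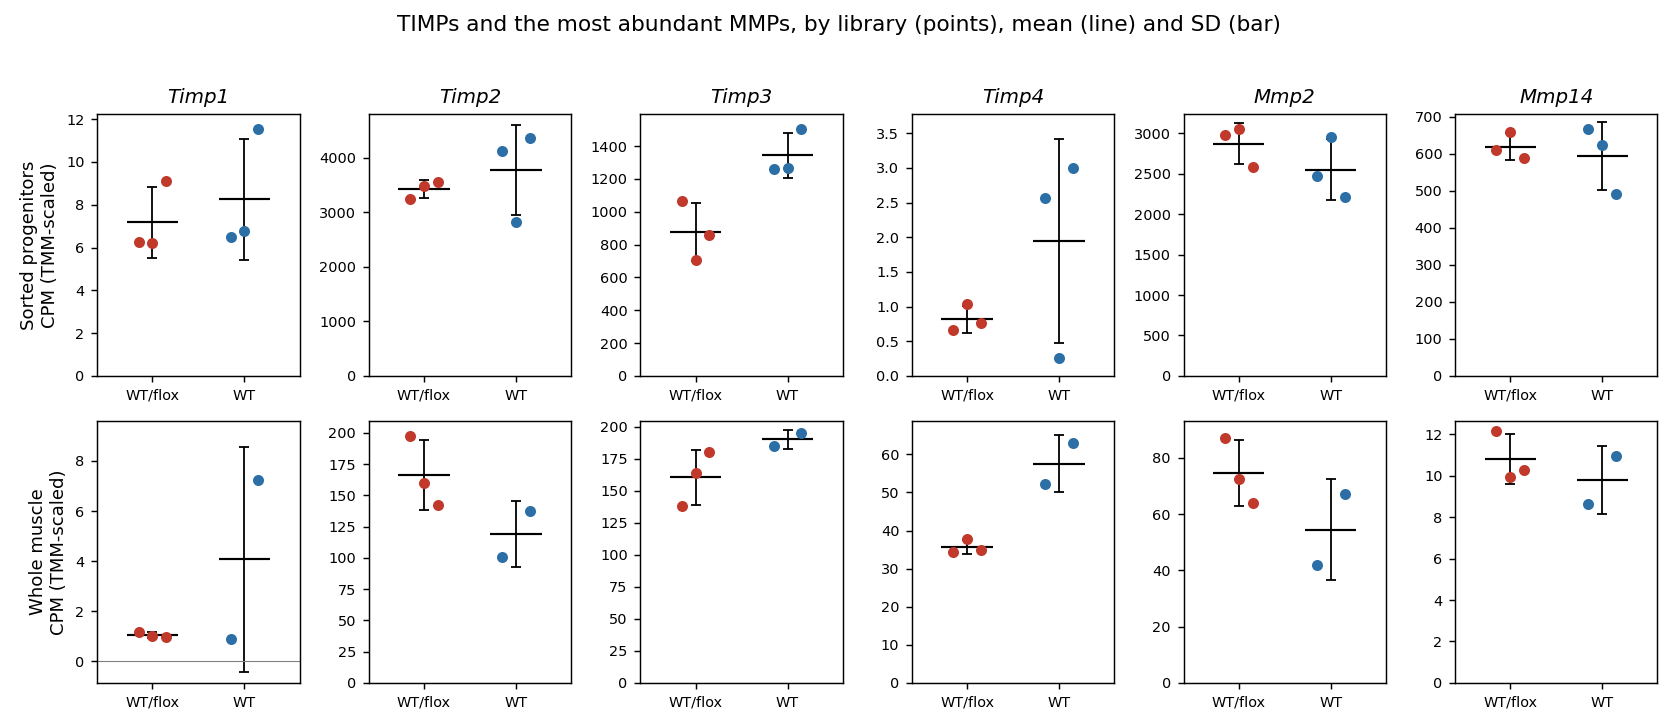
CPM of the 4 TIMPs, Mmp2 and Mmp14 in each library (points), with the mean (line) and SD (bar), WT/flox left of WT, in progenitors (upper row) and whole muscle (lower row). In progenitors only Timp3 separates the genotypes, and in muscle the WT library 73A7, at 7.24 CPM, lies above all others for Timp1.

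Genes that work with these proteases were also read from lists chosen by known function. Among 20 tested activators, cofactors and other inhibitors, 0 rose and 1 fell in progenitors, or 5%, close to the 3.66% of all tested genes. This was Pcsk6, a proprotein convertase that can activate protease precursors, at 748 ± 22.5 CPM in WT/flox and 1544 ± 318 CPM in WT progenitors (SD, n = 3 each; log2 fold change -1.05, SE 0.20, adjusted p = 0.0189). Among 15 tested ADAMTS substrates 3 rose and 0 fell, where 2.34% of all tested genes rose and 1.32% fell. They were the fibrillin gene Fbn2 (3.89, SE 0.37, adjusted p = 4.7e-04) and the type I collagen genes Col1a1 (1.16, SE 0.20, adjusted p = 0.00998) and Col1a2 (1.09, SE 0.20, adjusted p = 0.0142). Among 22 tested ADAM10 and ADAM17 substrates 2 rose and 2 fell. The risen genes were the proteoglycan Sdc1 (1.14, SE 0.22, adjusted p = 0.0183) and Kl, the FGF23 co-receptor (3.86, SE 0.38, adjusted p = 4.7e-04). The fallen genes were the membrane chemokine Cxcl16 (-0.86, SE 0.20, adjusted p = 0.0495) and the EGF-family ligand Btc (-1.30, SE 0.30, adjusted p = 0.0421). Median log2 fold changes of the lists were 0.01, 0.25 and -0.07 in the order given, against 0.00 over all tested genes.

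In whole muscle at day 56, 1 of 45 tested genes rose in WT/flox (Adamts8) and 0 fell, or 2.2%, where 0.727% of all 12654 tested genes were called (0.514% higher and 0.213% lower). At an unadjusted p under 0.05 edgeR gave 4 higher and 6 lower, or 22.2% of the 45, where 9.69% of all tested genes were under it. DESeq2 called 2 higher and 1 lower, and limma voom 1 higher and 0 lower. The genotypes did not overlap for 15 of the 45 genes, 5 higher and 10 lower (33.3%), against 25.3% of all tested genes (12.4% higher and 12.9% lower). The median log2 fold change was -0.08, against 0.00 over all tested genes. Summed progenitor markers were 916 to 1109 CPM in WT/flox muscle and 480 to 774 CPM in WT muscle, with none of the 7 called. Without Col1a1 and Dcn the sums were 114 to 159 CPM in WT/flox and 84.1 to 143 CPM in WT muscle, with overlap. Endothelial markers summed to 227 to 253 CPM in WT/flox and 293 to 323 CPM in WT muscle, muscle stem cell markers to 93.4 to 105 CPM in WT/flox and 136 to 165 CPM in WT, and glial markers to 91.0 to 103 CPM in WT/flox and 105 to 124 CPM in WT. Most of the muscle stem cell sum was Itga7, with means of 81.8 CPM in WT/flox and 131 CPM in WT muscle. Of the other muscle stem cell markers, Pax7 and Myf5 had higher means in WT/flox, and Vcam1 and Chodl lower ones. The myofibre sums given above were also lower in every WT/flox library, though narrowly, with 142080 CPM the highest in WT/flox and 142519 CPM the lowest in WT. Of those markers, Acta1, Ckm, Myh4 and Tnnt3 had lower means in WT/flox muscle, and Myh1 and Atp2a1 higher ones. None of the genes in these lists was called, and the part of these markers in the muscle results was not tested.

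Adamts8 had 50.6, 32.1 and 37.8 CPM in WT/flox muscle, against 11.4 and 7.5 CPM in WT muscle. The lowest WT/flox library was above both WT libraries. It averaged 40.2 ± 9.51 CPM (SD, n = 3) and 9.43 ± 2.74 CPM (SD, n = 2), a 4.25-fold rise (log2 fold change 2.09, SE 0.26, adjusted p = 0.0176). The call held in 9 of 10 alternatives and was lost without 71B5 (2.13, adjusted p = 0.119, against 2.1e-11 as the lowest), a setting in which 0 of all tested genes were called. Adamts8 was thus called higher in WT/flox in both materials, and the effects were not shown to differ (difference 1.31, SE 0.52, adjusted p = 0.429). Its level was higher in muscle than in progenitors in both genotypes. It was 8.71 against 3.93 CPM per kb in WT/flox and 2.05 against 0.350 CPM per kb in WT. Which cells of the muscle carried the rise was not tested.

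**Figure D4:**
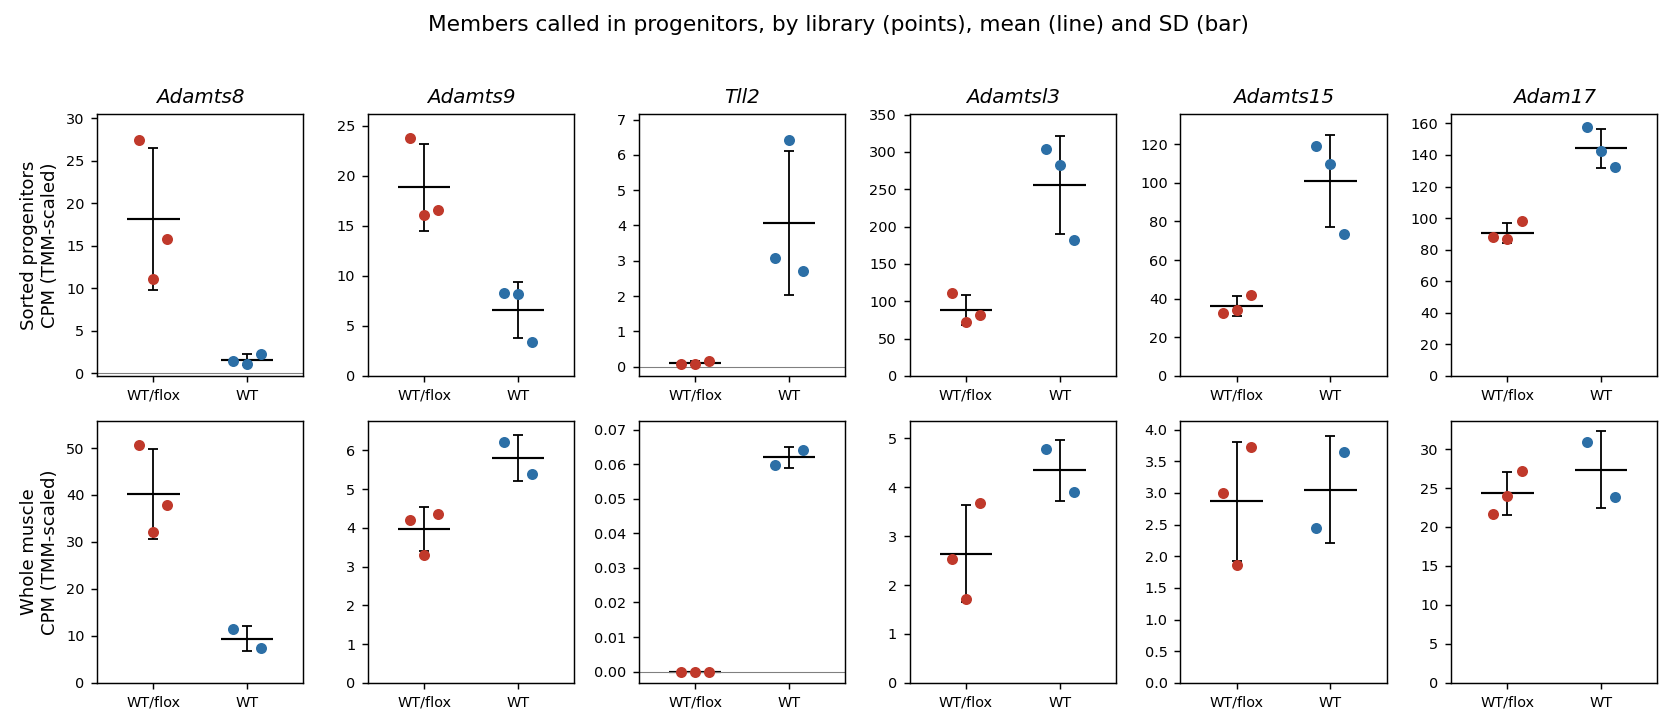
CPM of the 6 genes called in progenitors, in each library (points), with the mean (line) and SD (bar), WT/flox left of WT, in progenitors (upper row) and whole muscle (lower row). Adamts8 is higher in WT/flox in both rows, Adamts9 is higher in WT/flox in the upper row and lower in the lower row, and Tll2 in muscle has 1 count in each WT library and none in WT/flox.

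Adamts9 had 4.22, 3.31 and 4.35 CPM in WT/flox muscle, against 6.22 and 5.38 CPM in WT muscle. Here every WT/flox library was below both WT libraries, although the difference did not pass (-0.55, SE 0.21, adjusted p = 0.428). The effect of WT/flox was larger in progenitors than in muscle by 2.03 on the log2 scale (SE 0.42, adjusted p = 0.042), the only gene called among the 54 tested for this difference, where 0.769% of all 13781 tested genes were called. That difference lay between 1.73 and 2.21 on leaving out each library, but passed in only 3 of 11 such fits (without 72B7, 74A2 or 73C3), and limma voom did not call it (2.12, adjusted p = 0.0609). Over all 15 alternatives its adjusted p ran between 0.00158 and 0.141. Day after tamoxifen and material changed together except in 74A3.

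The genes that fell in progenitors were not called in muscle. Adamts15 had 3.0, 1.87 and 3.73 CPM in WT/flox muscle, against 2.45 and 3.65 CPM in WT muscle (-0.08, SE 0.34, adjusted p = 0.973). Adamtsl3 had 2.53, 1.71 and 3.68 CPM in WT/flox muscle, against 4.79 and 3.91 CPM in WT muscle (-0.71, SE 0.32, adjusted p = 0.54). Adamtsl3 separated the genotypes and Adamts15 did not. Adam17 had 21.7, 24 and 27.2 CPM in WT/flox muscle, against 30.9 and 23.8 CPM in WT muscle (-0.17, SE 0.17, adjusted p = 0.848). Tll2 had 0, 0 and 0 counts in WT/flox muscle, against 1 and 1 counts in WT muscle, and was not tested. The differences between materials were -1.44 for Adamts15 (SE 0.38, adjusted p = 0.126), -0.86 for Adamtsl3 (SE 0.40, adjusted p = 0.573) and -0.54 for Adam17 (SE 0.23, adjusted p = 0.491), so a smaller effect in muscle was not shown by edgeR. For Adamts15 DESeq2 did call the difference (-1.40, adjusted p = 0.0339), the only 1 of 15 alternatives to do so, with adjusted p up to 0.416.

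**Figure D5:**
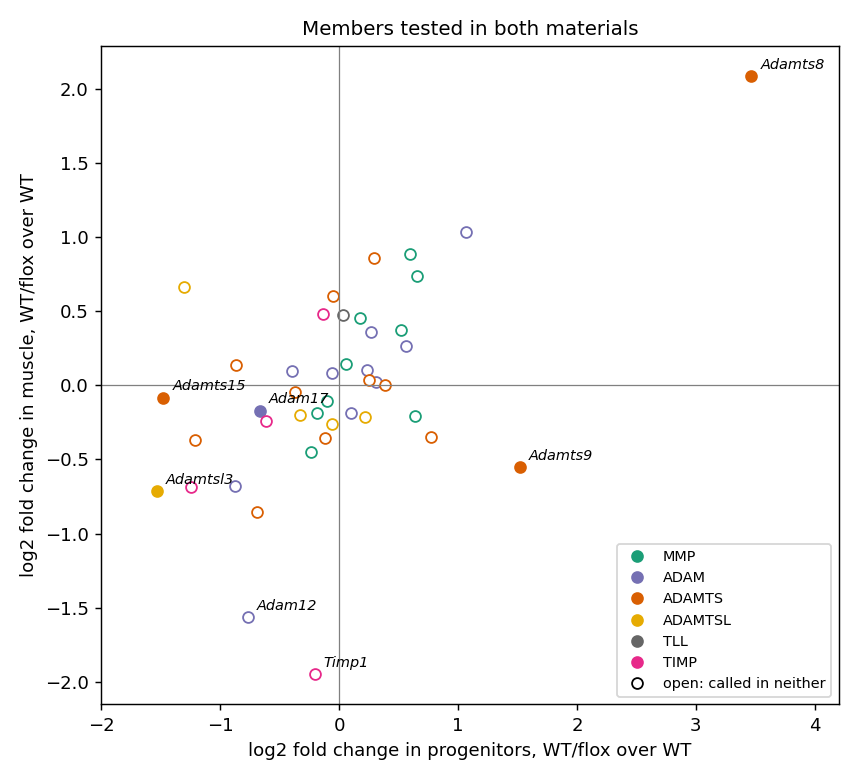
Log2 fold change of WT/flox over WT in progenitors (horizontal) and in whole muscle (vertical) for the 43 genes tested in both. Adamts8, the only gene called in both, is at 3.47 and 2.09, and Adamts9 has a positive value in progenitors (1.52) and a negative one in muscle (-0.55).

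None of the 4 TIMPs passed in muscle by edgeR or limma voom, while DESeq2 called Timp4 lower. In edgeR 3 had an unadjusted p under 0.05, 1 higher and 2 lower (75%, against 9.69% of all tested genes). Timp4, a TIMP known from heart and muscle, had 34.4, 37.9 and 35.0 CPM in WT/flox muscle, against 52.3 and 62.9 CPM in WT muscle. Its libraries did not overlap (log2 fold change -0.69, SE 0.14, adjusted p = 0.107), and it shares exonic bases with Syn2 on the opposite strand. Timp1 had 1.16, 1.01 and 0.957 CPM in WT/flox muscle, against 0.898 and 7.24 CPM in WT muscle (-1.95, SE 0.70, adjusted p = 0.392). Its WT mean rests on 73A7: without that library the value was 0.21, and without 73A5 it was -2.79 (adjusted p = 9.0e-04). Timp2 had 197, 159.7 and 142 CPM in WT/flox muscle, against 101 and 138 CPM in WT muscle (0.48, SE 0.20, adjusted p = 0.497). Timp3 had 138, 164 and 181 CPM in WT/flox muscle, against 185 and 195 CPM in WT muscle (-0.24, SE 0.16, adjusted p = 0.714). Both separated the genotypes, Timp2 upward and Timp3 downward.

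The abundant proteases of progenitors were low in muscle and did not pass there. Mmp2 had 87.2, 72.6 and 63.9 CPM in WT/flox muscle, against 41.7 and 67.2 CPM in WT muscle (0.45, SE 0.23, adjusted p = 0.597). Mmp14 had 12.2, 9.92 and 10.3 CPM in WT/flox muscle, against 8.62 and 11 CPM in WT muscle (0.14, SE 0.18, adjusted p = 0.892). Both overlapped. Adamts2 had 28, 26.3 and 26.3 CPM in WT/flox muscle, against 11.8 and 17.8 CPM in WT muscle, without overlap (0.86, SE 0.19, adjusted p = 0.132), and DESeq2 called it. Adamts5 had 18.0, 16.0 and 18.7 CPM in WT/flox muscle, against 18.3 and 17.9 CPM in WT muscle (-0.04, SE 0.14, adjusted p = 0.964). Adamts1, its neighbour, averaged 34.0 ± 4.27 CPM in WT/flox (SD, n = 3) and 33.8 ± 15.7 CPM in WT muscle (SD, n = 2), a log2 fold change of 0.00 (SE 0.27). Neither of the neighbours differed by more than its spread.

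Adam9 had 82.2, 90.8 and 117 CPM in WT/flox muscle, against 122 and 60.5 CPM in WT muscle (0.08, SE 0.29, adjusted p = 0.968). Adam19 had 2.64, 2.19 and 4.02 CPM in WT/flox muscle, against 4.49 and 5.0 CPM in WT muscle (-0.68, SE 0.28, adjusted p = 0.495). The Adam19 libraries separated the genotypes and the Adam9 libraries did not. Adamtsl4 had 38.7, 47.1 and 47.9 CPM in WT/flox muscle, against 49.8 and 52.6 CPM in WT muscle, without overlap (-0.20, SE 0.15, adjusted p = 0.769), and Tll1 stayed at or below 0.957 CPM in every muscle library. None of the protease lists described for progenitors (activators and inhibitors, ADAMTS substrates, ADAM10 and ADAM17 substrates) had a called gene in muscle by edgeR, with 21, 14 and 21 tested, of which 4, 5 and 1 had an unadjusted p under 0.05, or 19%, 35.7% and 4.76%, beside 9.69% of all tested genes.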

How the data were processed

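RNA was sequenced from sorted progenitors and whole muscle with a stranded mRNA kit and paired reads, per the labels' protocols. The authors deposited raw read counts per gene symbol in 1 table per material. Per the submitters' processing notes, bcl2fastq 2.20, the aligners STAR and Bowtie, and build mm10 were used. Which program made the counts, and whether it used strand, is not stated in those sources. The deposited counts are not normalised.

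Each material was fitted apart with edgeR 4.0.16 in R 4.3.3: genes were kept by filterByExpr, libraries scaled by TMM (trimmed mean of M-values), and the 2-sided quasi-likelihood test adjusted by Benjamini-Hochberg over all genes tested, with 0.05 as the threshold. A joint fit of 11 libraries tested whether the genotype effect differed between materials. SE is the log2 fold change divided by the square root of F. CPM per kb uses the summed exon length of GENCODE M21; all 86 symbols matched. The steps were tested on simulated data. Alternatives were DESeq2 1.42.0, limma voom 3.58.1, DESeq2 size factors, no filter, sex as a covariate, the deposited replicate number as a block (added after seeing the data) and leaving out each library.

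Per-library values are given for called genes, the 4 TIMPs and the 2 genes with the highest WT level per kb in each other family, with neighbouring genes side by side. Members and lists were chosen with earlier results of these data known. No label says that samples came from separate animals, so p-values measure only the spread between these samples, which may be technical. Exact intervals cover counting error only.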

Additional observations from a re-analysis of the deposited data

Results flagged for a closer look

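The genotype effect on Adamts9 differed between materials in the joint test. The log2 fold change of WT/flox over WT was 1.52 in progenitors and -0.55 in muscle, and the difference was 2.03 (SE 0.42, adjusted p = 0.042 by edgeR). The WT/flox libraries all lay above the WT libraries in progenitors and all below them in muscle. Progenitors were at day 14 except for 74A3, and muscle was at day 56, so material and time cannot be told apart.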

How the results depend on the processing

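DESeq2 called 8 lower members in progenitors in place of 4, 2 higher and 1 lower in muscle in place of 1 and 0, and 3 for the difference between materials in place of 1; limma voom called 0 for that difference. The cause was not tested. Leaving out each library in turn, the count called in progenitors was 1 to 2 higher and 2 to 8 lower, in muscle 0 to 3 higher and 0 to 3 lower, and 0 to 2 for the difference between materials. Fewer libraries were fitted there. Over all genes, DESeq2 called 755 in place of 454 in progenitors, 267 in place of 92 in muscle and 272 in place of 106 for the difference; muscle had 139 without the filter and 178 with the block. On leaving out each library these counts were 262 to 483 in progenitors, 0 to 239 in muscle and 54 to 114 for the difference. DESeq2 size factors in edgeR and no count filter kept every member count within 1.5 times of its value.

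Whether the deposited replicate numbers mark pairs of libraries was not settled. Same-numbered libraries had deviation correlations of 0.28, 0.01 and -0.17 in progenitors and -0.03 and -0.53 in muscle. Deviations from the mean of so few libraries constrain each other, so these values can neither show nor exclude pairing. With that replicate block, 3 members were higher and 5 lower of 51 tested in progenitors, and 1 was higher of 45 tested in muscle. Over all genes the block gave 491 called of 12392 tested in progenitors and 178 of 12654 in muscle.

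Tll1 in progenitors reversed to -0.058 with limma voom, -0.068 with sex as a covariate and -0.059 with the block. Leave-one-out values that changed sign ran, in progenitors, between -0.48 and 0.24 for Tll1, -0.20 and 0.080 for Adam9, -0.41 and 0.12 for Timp1, and -0.057 and 0.15 for Mmp14. In muscle they ran between -0.34 and 0.23 for Adamts15, -0.090 and 0.026 for Adamts5, -0.34 and 0.68 for Adam9, -0.35 and 0.030 for Adam17, -2.79 and 0.21 for Timp1, and -0.021 and 0.32 for Mmp14. None of these had been called. Over all single genes and alternatives, 427 values kept direction and side of the threshold, 22 lost and 10 gained a call, and 17 changed sign. Low counts left 11 members untested in progenitors and 19 in muscle.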

Other observations

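Several genes had 1 library far from its group, and these were noticed after the values were seen. In progenitors, Adamts10 had 129 to 201 CPM in WT/flox, against 166 and 214 CPM in the WT libraries 72B8 and 74A2 and 27.8 CPM in the WT library 73C3. Adam33, an ADAM of mesenchymal cells, had 127 to 158 CPM in WT/flox progenitors, against 97.8 and 88.7 CPM in 72B8 and 74A2 and 20.6 CPM in 73C3. Its log2 fold change of WT/flox over WT was 1.07 in progenitors (SE 0.47, adjusted p = 0.399) and 1.04 in muscle (SE 0.33, adjusted p = 0.311).

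In muscle, the gelatinase Mmp9 had 0.431 to 0.747 CPM in WT/flox, against 0.539 CPM in the WT library 73A5 and 4.74 CPM in the WT library 73A7. The collagenase Mmp13 had 3.30 to 6.24 CPM in WT/flox, against 2.04 CPM in 73A5 and 11.5 CPM in 73A7. Timp1 was also highest in 73A7, at 7.24 CPM. Summed immune markers were 42.7 to 58.7 CPM in WT/flox muscle, 22.6 CPM in 73A5 and 75.0 CPM in 73A7, and their part in these values was not tested.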
